A study of Mus musculus with 18 samples.

Results

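*H19* and 9 other imprinted genes that regulate growth (*Igf2*, *Igf2r*, *Grb10*, *Cdkn1c*, *Plagl1*, *Mest*, *Peg3*, *Dlk1* and *Meg3*) were followed in cultured mouse tail tendon fibroblasts (TFs). They are 10 of the 55491 rows of the gene count table, taken by gene symbol. *H19* was chosen by its measured counts, which had been seen to be higher in cKO libraries, and the other 9 were taken to see whether imprinted genes of the same network followed it. The cKO against Ctrl difference of *H19* is therefore given as a description, without a test. All 10 passed the filter on low counts, both in the fit of 12 Ctrl and cKO libraries (15850 genes) and in that of all 18 libraries (16174 genes), but *H19* and *Igf2* did so only through the groups in which they were high. With Ctrl libraries alone in the fit, neither would have been tested.

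The study asked how TFs that lack *Hif1a*, which encodes the oxygen-regulated subunit of the transcription factor HIF-1, respond to low oxygen. Poly-A RNA was sequenced after 4 days in 20% or 1% O2 from 3 groups of TFs, with 3 replicates in each of 6 groups. Ctrl TFs are labelled wild-type and, by the study's methods, came from Cre-negative mice. The study lists Cre-negative *Hif1a* flox/flox and *Hif1a* flox/WT;*ScxCre* mice among its Ctrl animals, so Ctrl TFs may carry floxed *Hif1a* alleles. The cKO TFs came from *Hif1a* flox/flox;*ScxCre* mice on a mixed C57BL6J/129S1 background, in which Cre is made in cells with *Scx* promoter activity and from before birth. The third group was Ctrl TFs treated with Cre gesicles, vesicles that deliver Cre protein, for which no *Hif1a* genotype beyond wild-type is given. All TFs grew out of tail tendons of adult male and female mice and were passaged in culture.

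Imprinted genes are read mainly from 1 parental copy, and the mark that silences the other is set in the germ line. *H19* and *Igf2* lie side by side and share enhancers: the maternal copy yields *H19*, a long noncoding RNA that is the host of miR-675, and the paternal copy yields *Igf2*, a fetal growth factor. *Igf2r* encodes the receptor that takes up IGF2 and delivers it to lysosomes, and *Grb10* an adaptor that restrains signalling by the insulin and IGF1 receptors. *Cdkn1c* encodes the cyclin-dependent kinase inhibitor p57, and *Plagl1* a zinc finger transcription factor known to act on several genes of this network. *Mest* encodes a membrane protein of the hydrolase fold, and *Peg3* a zinc finger protein. *Dlk1*, a membrane-bound regulator of differentiation, is read from the paternal copy and *Meg3*, a long noncoding RNA, from the maternal copy of another shared locus. Many of these genes are high in the fetus and fall after birth.

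The stem-loop of miR-675 is shown because it ties the *H19* counts to a mature product that poly-A libraries do not measure. It lies in exonic sequence of *H19* at chr7:142577064-142577147 (GRCm38.p6, minus strand). In the RefSeq sequences below, capitals mark the mature arms in the hairpin and the seed, bases 2 to 8, in each arm, and the seeds of the arms differ.
mmu-mir-675 hairpin: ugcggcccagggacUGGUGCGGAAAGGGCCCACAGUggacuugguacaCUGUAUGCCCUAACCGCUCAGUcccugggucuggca
mmu-miR-675-5p: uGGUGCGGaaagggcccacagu
mmu-miR-675-3p: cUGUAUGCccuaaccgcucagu

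Library totals ranged from 6857558 counts in cKO 1% O2 replicate 1 to 51806453, and no other library was under 26967440. A floor of 3 counts corresponds to 0.437 CPM (counts scaled to the library total) in the smallest library and to 0.0579 to 0.111 CPM in the others. Values below are CPM normalized with edgeR's TMM method, as mean ± SD of 3 libraries. The study's text gives 3 mice but the labels give no mouse per library, so p-values measure the spread between these libraries. By *Xist*, the RNA made from the inactive X chromosome of females, libraries with replicate number 1 were low and 2 and 3 high in the Ctrl and gesicle groups, while 1 was high and 2 and 3 low in the cKO groups, at both O2 levels. The cKO against Ctrl comparisons therefore set 2 *Xist*-low and 1 *Xist*-high library against 1 and 2. The Cre transgene had counts in 5 cKO libraries out of 6 and in 0 libraries of the other groups. *Hif1a* counts, which are summed over the whole gene and do not separate a floxed exon, differed by a log2 fold change of 0.09 (SE 0.11, adjusted p = 0.605 in edgeR) between cKO and Ctrl TFs. By qPCR after a longer culture, the study reports reduced *Hif1a* expression in cKO tail TFs. Tendon markers had counts in all 18 libraries, with a median of 2710 CPM for *Col1a2* but only 14.9 CPM for *Scx*. In contrast, *Pax7*, *Myf5*, *Ckm*, *Cd3e* and *Lep* had no count in any library. Other markers of other cells were present, with medians of 108 CPM for *Cnn1*, 28.2 CPM for *Tek*, 22.7 CPM for *Acta1*, 3.03 CPM for *Des*, 2.96 CPM for *Fabp4*, 1.02 CPM for *Csf1r* and 0.79 CPM for *Cd68*.

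*H19* (ENSMUSG00000000031, chromosome 7 from 142575529 to 142578143 on GRCm38, minus strand) was close to undetected outside cKO TFs. In replicates 1 to 3 it had 3, 3 and 7 counts in Ctrl 20% O2 and 2, 1 and 2 counts in Ctrl 1% O2. Gesicle-treated Ctrl TFs had 5, 6 and 11 counts in 20% O2 and 4, 0 and 3 counts in 1% O2. The cKO libraries had 29, 78 and 139 counts in 20% O2 and 3, 21 and 51 counts in 1% O2. Scaled to library size these were 1.04, 1.99 and 3.15 CPM in cKO 20% O2 and 0.427, 0.604 and 1.28 CPM in cKO 1% O2, each above every Ctrl and gesicle library, none of which exceeded 0.217 CPM. The lowest of them, cKO 1% O2 replicate 1, had only as many counts as the floor.

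The ratio of summed *H19* counts between cKO and Ctrl TFs, corrected for library size, was 17.7 in 20% O2 (246 against 13 counts, exact 95% interval 10.2 to 33.7) and 19.9 in 1% O2 (75 against 5 counts, exact 95% interval 8.15 to 63.0), and these intervals cover counting error only. edgeR's log2 fold change was 4.00 (SE 0.59) in 20% O2, 4.05 (SE 0.68) in 1% O2 and 4.02 (SE 0.45) averaged over both. With *Xist* class as a covariate the averaged value was 3.70. Within *Xist*-low libraries *H19* was 0.0804 CPM in the Ctrl and 2.57 CPM on average in the 2 cKO libraries in 20% O2, and within *Xist*-high libraries it was 0.151 CPM on average in the 2 Ctrl and 1.04 CPM in the cKO library. At both O2 levels, replicate 3 was the highest of the cKO libraries and replicate 1 the lowest.

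**Figure D1:**
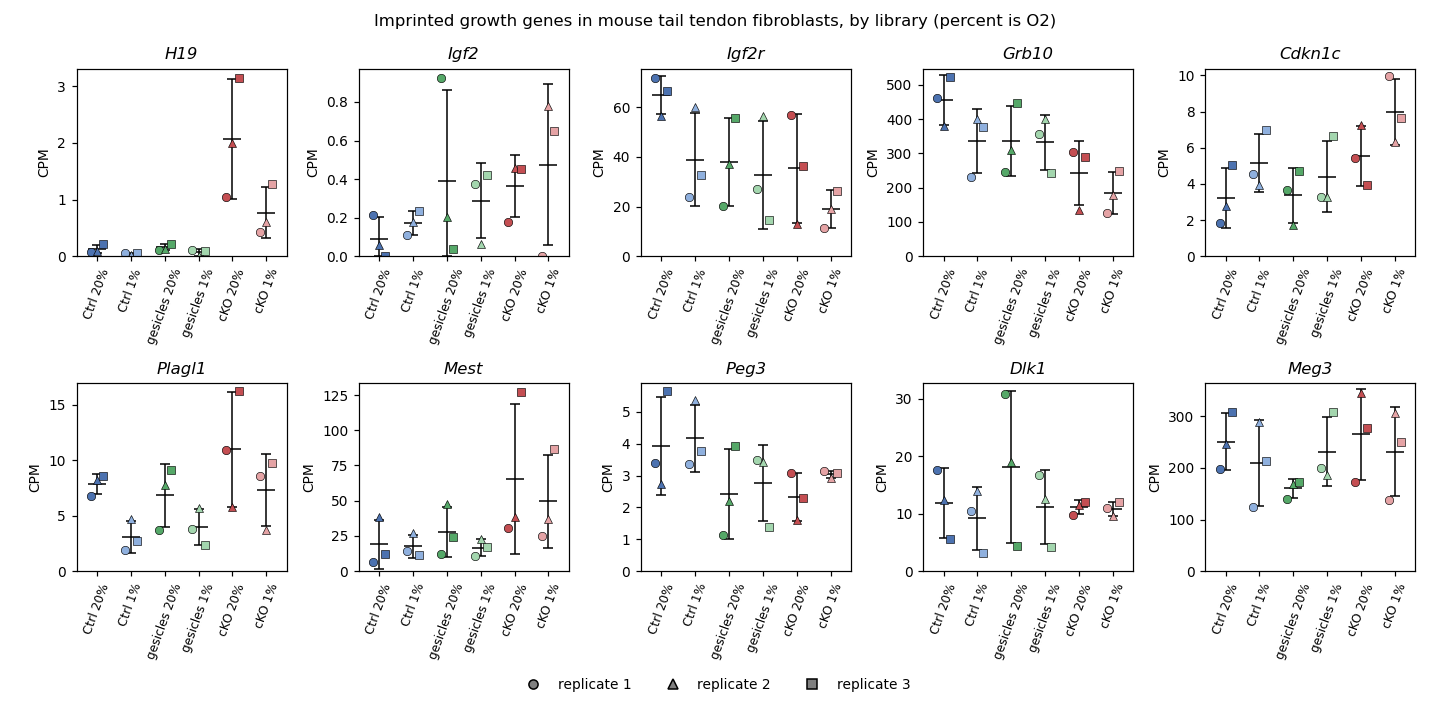
CPM of the 10 imprinted genes (vertical axes, linear from 0) in 18 libraries of 6 groups (horizontal axes), with circles, triangles and squares for replicates 1, 2 and 3, and the mean and SD in black, cut at 0. *H19* is above 0.217 CPM only in the 6 cKO libraries, while *Grb10*, *Igf2r* and *Mest* overlap between Ctrl and cKO TFs at 1 or both O2 levels.

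Set per kilobase of annotated exon, so that genes of different length can be compared, the highest of the 10 was *Grb10* with a median of 33.8 CPM per kilobase over the 18 libraries, followed by *Meg3* (11.4), *Mest* (6.21), *Igf2r* (3.71), *Cdkn1c* (2.27), *Dlk1* (2.08), *Plagl1* (0.806), *Peg3* (0.233), *H19* (0.0512) and *Igf2* (0.0365). *Grb10* was above *Meg3* in 17 of 18 libraries and *Plagl1* above *Peg3* in 17 of 18. *Dlk1* was above *Plagl1* in 16 libraries and *Meg3* above *Mest* in 15. The remaining neighbours changed places more often and were not separated beyond their spread, with *Cdkn1c* above *Dlk1* in 10 libraries and *H19* above *Igf2* in 11. Even in cKO 20% O2, *H19* reached only 0.837 ± 0.43 CPM per kilobase, where *Grb10* had 26.7 ± 10.2.

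*Igf2* (chromosome 7 from 142650766 to 142666816, minus strand), the partner of *H19*, had few counts in every group. In replicates 1 to 3 it had 8, 2 and 0 counts in Ctrl 20% O2 and 4, 6 and 9 counts in Ctrl 1% O2. The cKO libraries had 5, 18 and 20 counts in 20% O2 and 0, 27 and 26 counts in 1% O2. Gesicle-treated Ctrl TFs had 40, 9 and 2 counts in 20% O2 and 13, 2 and 14 counts in 1% O2, so that the highest single value, 0.927 CPM, came from a gesicle library. Replicates 2 and 3 of cKO TFs were above all 6 Ctrl libraries at both O2 levels, but replicate 1 was not, and the groups overlapped. Summed counts of *Igf2* were 4.02 times as high in cKO as in Ctrl TFs in 20% O2 (43 against 10 counts, exact 95% interval 1.99 to 8.97) and 3.70 times in 1% O2 (53 against 19 counts, exact 95% interval 2.15 to 6.62), again for counting error only. *Igf2* passed the filter in these 12 libraries only through replicates 2 and 3 of cKO TFs. The averaged log2 fold change of *Igf2* was 1.79 (SE 0.62) in edgeR, and DESeq2 gave no adjusted p for it. This value is a description, because the libraries that let *Igf2* into the fit are among those compared. A test of it between genotypes therefore cannot decide. Another annotated gene, *Gm49394*, shares 3596 bases of exon with *Igf2* on the same strand, and it had 0 counts in all libraries.

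*Grb10* (ENSMUSG00000020176, chromosome 11 from 11930508 to 12038683, minus strand) was the only one of the other 9 that was called differentially expressed between cKO and Ctrl TFs, and it was lower in cKO TFs. Calls needed a fold of 1.5 or more, up or down, and a p-value under 0.05 after Benjamini-Hochberg adjustment over all genes. In replicates 1 to 3, *Grb10* was at 460, 379 and 524 CPM in Ctrl 20% O2 and at 303, 136 and 289 CPM in cKO 20% O2, and these libraries did not overlap. In 1% O2 it was at 230, 400 and 377 CPM in Ctrl and at 126, 180 and 249 CPM in cKO TFs, where Ctrl replicate 1 lay within the cKO range. Averaged over both O2 levels it fell by 0.88 on the log2 scale (SE 0.22, adjusted p = 0.0456 in edgeR), and the adjusted p was 0.256 in 20% and 0.237 in 1% O2 alone. The averaged call treats the 6 libraries of each genotype as independent. It was lost in edgeR with the replicate block (adjusted p = 0.0509) and with *Xist* class as a covariate (adjusted p = 0.093). The replicate block gives Ctrl and cKO libraries of the same number a shared term, although they come from different mice. The call was also lost when libraries with the same number were summed as 1 mouse (log2 fold change −0.78, adjusted p = 0.225 in edgeR). It was lost when a library was left out, except for Ctrl 1% O2 replicate 1, cKO 20% O2 replicate 1 or cKO 1% O2 replicate 3 (adjusted p from 0.0569 to 0.112 in edgeR in the other 9 cases).

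*Igf2r* (chromosome 17 from 12682406 to 12769664, minus strand) differed in the same direction as *Grb10* but did not pass the test. It was at 71.5, 56.5 and 66.4 CPM in Ctrl 20% O2 and at 56.7, 12.8 and 36.4 CPM in cKO 20% O2. In 1% O2 it was at 23.9, 59.9 and 32.7 CPM in Ctrl TFs and at 11.2, 19 and 26.4 CPM in cKO TFs. The groups overlapped at both O2 levels, and the averaged log2 fold change was −0.95 (SE 0.33, adjusted p = 0.0934 in edgeR; DESeq2 adjusted p = 0.0239). *Airn*, an antisense RNA that spans part of *Igf2r* and is known to silence its paternal copy, had 1 to 31 counts per library and a log2 fold change of 0.69 (SE 0.40, adjusted p = 0.269 in edgeR). It shares no exon bases with *Igf2r*.

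*Mest* (chromosome 6 from 30723547 to 30748465, plus strand) had the largest difference after *H19* among the well-counted members. It was at 6.41, 38.7 and 11.9 CPM in Ctrl 20% O2 and at 30.8, 38.4 and 127 CPM in cKO 20% O2. In 1% O2 it was at 14.6, 26.7 and 11.2 CPM in Ctrl and at 24.6, 37.2 and 87.0 CPM in cKO TFs. Replicate 3 of cKO TFs was far above the other libraries, and Ctrl replicate 2 lay among the cKO libraries at both O2 levels. The averaged log2 fold change was 1.65 (SE 0.50, adjusted p = 0.0715 in edgeR; DESeq2 adjusted p = 0.0309). It was 0.85 to 2.39 over 26 alternatives, and only 6 of them, DESeq2 included, called it, with an adjusted p of up to 0.306 in edgeR. The settings in which edgeR called it were no filter on low counts (1.65, adjusted p = 0.00728), without Ctrl 20% O2 replicate 2 (2.17, adjusted p = 0.0383) or both libraries of Ctrl replicate 2 (2.39, adjusted p = 0.0484), and without cKO 20% O2 replicate 1 (1.82, adjusted p = 0.0336) or both libraries of cKO replicate 1 (1.97, adjusted p = 0.0411). *Copg2*, which runs antisense to *Mest* and shares 912 bases of exon with it, had 422 to 3409 counts and differed by a log2 fold change of 0.01 (SE 0.10). Whether the counting used strand is not given in the sources used here.

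The remaining members divided in direction. They were *Plagl1* (chromosome 10 from 13060504 to 13131694, plus strand), *Cdkn1c* (chromosome 7 from 143458339 to 143461050, minus strand) and *Peg3* (chromosome 7 from 6703892 to 6730431, minus strand). *Plagl1* was at 6.81, 8.21 and 8.55 CPM in Ctrl 20% O2 and at 10.9, 5.80 and 16.2 CPM in cKO 20% O2, and in 1% O2 at 1.90, 4.68 and 2.72 CPM in Ctrl and 8.53, 3.68 and 9.75 CPM in cKO TFs. Replicate 2 of cKO TFs lay within the Ctrl range in 1% O2 and below all Ctrl libraries in 20% O2, and the averaged log2 fold change was 0.85 (SE 0.31, adjusted p = 0.102 in edgeR; DESeq2 adjusted p = 0.0355). *Cdkn1c* was 3.23 ± 1.65 CPM in Ctrl 20% O2 and 5.54 ± 1.67 CPM in cKO 20% O2, against 5.15 ± 1.60 and 7.97 ± 1.84 CPM in 1% O2 (averaged log2 fold change 0.69, SE 0.26, adjusted p = 0.114 in edgeR). *Peg3* was 3.93 ± 1.54 CPM in Ctrl and 2.32 ± 0.74 CPM in cKO 20% O2, against 4.16 ± 1.06 and 3.04 ± 0.116 CPM in 1% O2 (−0.61, SE 0.23, adjusted p = 0.109 in edgeR). *Peg3* did not overlap between genotypes in 1% O2, and *Cdkn1c* overlapped at both levels.

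*Dlk1* (chromosome 12 from 109452823 to 109463336, plus strand) and *Meg3* (chromosome 12 from 109541001 to 109571726, plus strand), the pair of the other shared locus, gave differences near 0 whose sign changed between settings. *Dlk1* was 11.8 ± 6.07 CPM in Ctrl and 11.1 ± 1.19 CPM in cKO 20% O2, and 9.20 ± 5.55 and 10.8 ± 1.26 CPM in 1% O2. Its averaged log2 fold change was 0.07 (SE 0.33, adjusted p = 0.909 in edgeR). *Meg3* was 251 ± 55.8 CPM in Ctrl and 265 ± 87.7 CPM in cKO 20% O2, and 209 ± 82.7 and 232 ± 85.5 CPM in 1% O2, with an averaged log2 fold change of 0.11 (SE 0.25, adjusted p = 0.787 in edgeR). These errors are wide enough that a difference as large as that of *Cdkn1c* would not have been told from 0 for *Dlk1*.

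**Figure D2:**
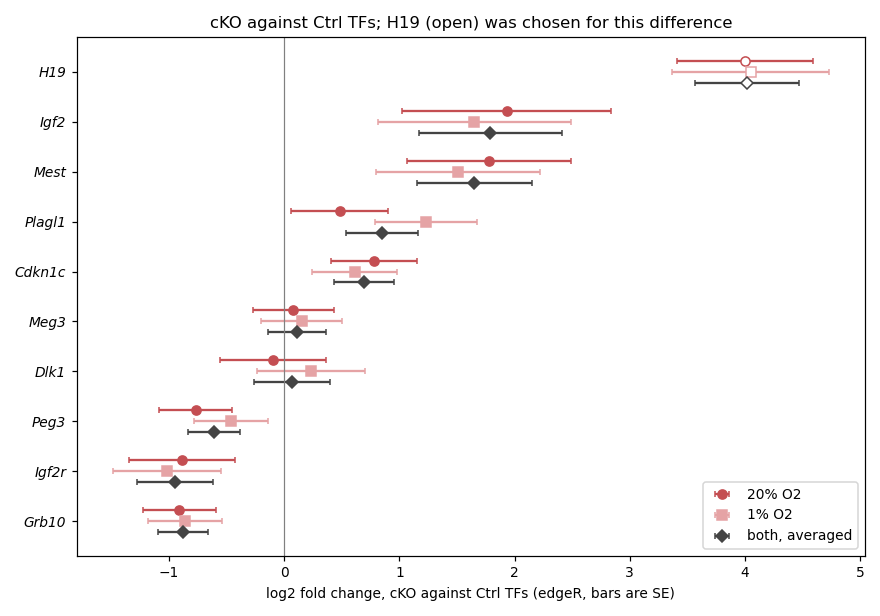
Log2 fold change between cKO and Ctrl TFs (horizontal axis, edgeR, bars are SE) for the 10 genes (vertical axis) in 20% O2 (circles), in 1% O2 (squares) and averaged over both (diamonds). Among the other 9 genes (filled), the averaged values run from −0.95 for *Igf2r* to 1.79 for *Igf2*, whose value is a description. The open symbols of *H19*, the gene chosen for this difference, lie at 4.00 to 4.05.

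Over the 9 members other than *H19*, 6 averaged log2 fold changes were positive and 3 negative, with a median of 0.11 against 0.024 over all genes. *Igf2* is counted among the 9 here and below, and among the 6, although its own outcome decides nothing. By edgeR, 1 of the 9 was called in the averaged comparison, where 3.78% of all tested genes were called. At an unadjusted p under 0.05 with the same fold change there were 7 of the 9, against 11.2% of all genes, and these include *Igf2*, which was tested only because it was high in 4 cKO libraries. DESeq2 called 4 (*Igf2r*, *Mest*, *Grb10* and *Plagl1*), against 9.21% of genes. These averaged counts treat the libraries of each genotype as independent, although those of the 2 O2 levels share replicate numbers. With libraries of the same number summed as 1 mouse, edgeR called 0 of the 9, and 25 of 16715 genes. In 20% O2 alone, edgeR and DESeq2 called 0 of the 9 (0.347% and 2.94% of all genes), and 3 had an unadjusted p under 0.05 (8.53% of all genes). In 1% O2 alone both tools again called 0 of the 9 (0.0379% and 2.12%), and 2 had an unadjusted p under 0.05 (9.77%). Direction agreed between the O2 levels for 8 of the 9, the exception being *Dlk1*, but the libraries of the 2 levels share replicate numbers. Within *Xist* class, in 4 splits by class and O2 level, *Cdkn1c*, *Mest* and *Plagl1* were higher in cKO TFs in 4, *Igf2* and *Dlk1* in 3, *Meg3* in 2, and *Grb10*, *Igf2r* and *Peg3* in 0. Each split sets 1 library against 2, and the splits at the 2 O2 levels share replicate numbers, so the 4 are not independent. The share of all genes with such counts is not given. Some differences were small, as for *Grb10* between *Xist*-low libraries in 1% O2 (230 CPM in Ctrl, 215 CPM in cKO TFs). The size for *Mest* was uneven, from 6.41 to 82.9 CPM between *Xist*-low and from 25.3 to 30.8 CPM between *Xist*-high libraries in 20% O2.

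Between O2 levels, *H19* could be tested only in cKO TFs and did not pass. It was lower there in 1% than in 20% O2 in 3 of 3 replicate numbers (log2 fold change −1.32, SE 0.51, adjusted p = 0.183 in edgeR; DESeq2 adjusted p = 0.147). Ctrl and gesicle-treated TFs had the 0 to 11 counts per library given above and would not have passed the filter on their own, so no fold change or test is given for *H19* there. *Plagl1* was lower in 1% O2 in 3 of 3 Ctrl numbers and without overlap (−1.34, SE 0.44, adjusted p = 0.159 in edgeR). It passed with libraries of the same number as 1 mouse in a replicate block (−1.42, adjusted p = 0.0197), a pairing that the Ctrl libraries bore out, and with DESeq2 (adjusted p = 0.0323). In cKO TFs the log2 fold change of *Plagl1* was −0.58 (SE 0.43, adjusted p = 0.473 in edgeR), in gesicle-treated TFs −0.79 (SE 0.46, adjusted p = 0.40 in edgeR), and the interaction of genotype and O2 for it was 0.75 (SE 0.61, adjusted p = 1 in edgeR). *Cdkn1c* was higher in 1% O2 in 3 of 3 Ctrl and 2 of 3 cKO numbers, with log2 fold changes of 0.68 (SE 0.37, adjusted p = 0.40 in edgeR) and 0.51 (SE 0.37, adjusted p = 0.463 in edgeR), and *Igf2r* had −0.73 (SE 0.46, adjusted p = 0.482 in edgeR) and −0.86 (SE 0.47, adjusted p = 0.328 in edgeR).

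**Figure D3:**
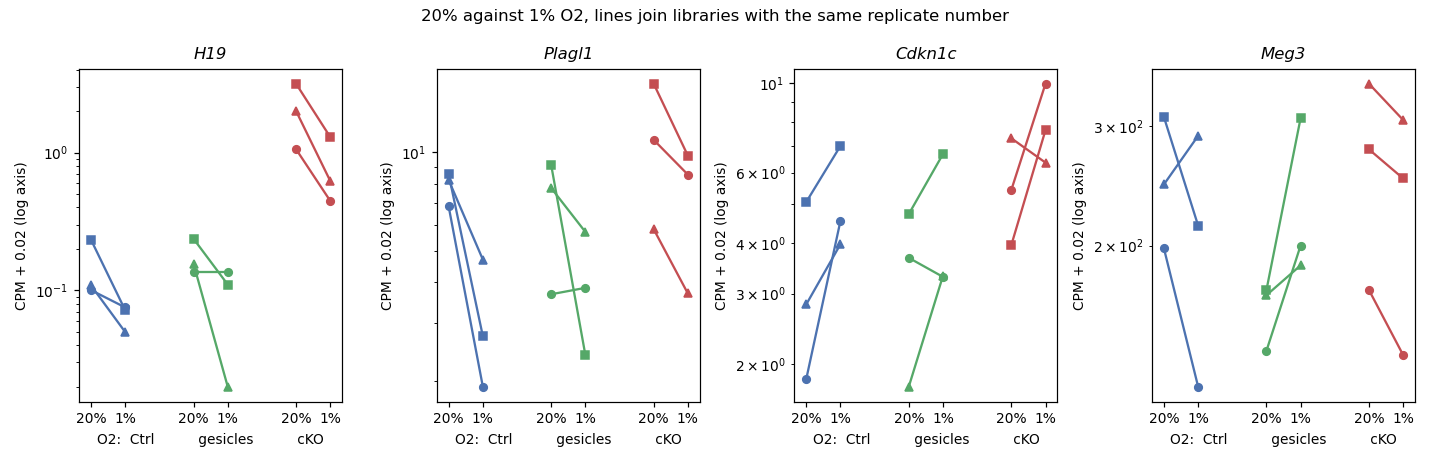
CPM plus 0.02 (vertical axes, log scale) of *H19*, *Plagl1*, *Cdkn1c* and *Meg3* in 20% and 1% O2 (horizontal axes) for Ctrl (blue), gesicle-treated Ctrl (green) and cKO TFs (red), with a line for each replicate number (circle 1, triangle 2, square 3). *H19* and *Plagl1* slope down in 3 of 3 Ctrl and 3 of 3 cKO numbers, and *Meg3* slopes up in 3 of 3 gesicle and down in 3 of 3 cKO numbers. The Ctrl lines of *H19* join only 3, 3 and 7 counts in 20% O2 to 2, 1 and 2 counts in 1% O2, too few to read a change.

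Of the 10 members, edgeR called 0 between 1% and 20% O2 in Ctrl TFs (1.88% of all genes), in cKO TFs (2.1%) and in gesicle-treated TFs (2.41%). DESeq2 called 1, 0 and 0 (4.55%, 6.28% and 4.75% of all genes), and 1, 1 and 0 had an unadjusted p under 0.05 (9.44%, 11.6% and 9.41%). *H19* and *Igf2* are counted among the 10, but their few counts in Ctrl and gesicle-treated TFs mean that their not being called there decides nothing. The interaction of genotype and O2 was called for 0 of the 9 members by edgeR and by DESeq2 (0.0% and 0.00701% of all genes), and 0 had an unadjusted p under 0.05 (1.84%).

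Gesicle treatment, which delivers Cre to Ctrl cells in culture, was set against untreated Ctrl TFs, which also serve as the control of the cKO comparison. *H19* was 0.156 ± 0.0535 CPM with and 0.127 ± 0.0742 CPM without gesicles in 20% O2, and 0.0688 ± 0.0609 and 0.0456 ± 0.0138 CPM in 1% O2, all at 0 to 11 counts. In 20% O2, *Meg3* was at 140, 169 and 172 CPM with and at 198, 246 and 309 CPM without gesicles, and *Igf2r* at 20.3, 37.3 and 55.7 against 71.5, 56.5 and 66.4 CPM. Neither overlapped, with log2 fold changes of −0.64 (SE 0.33, adjusted p = 1 in edgeR) and −0.78 (SE 0.54, adjusted p = 1 in edgeR). *Igf2* had 40, 9 and 2 counts with gesicles in 20% O2 and 8, 2 and 0 counts without. It passed the filter only through libraries in which it was high, so a test of it here cannot decide. By replicate number in 20% O2, *Grb10*, *Peg3*, *Igf2r* and *Meg3* were lower with gesicles in 3 of 3 and *Mest*, *Igf2* and *H19* higher in 3 of 3. *H19* and *Igf2* had too few counts to read a change from, and the *H19* change in replicate 3 was only 0.02 on the log2 scale. In 1% O2 none of these genes kept 1 direction, while *Cdkn1c* was lower with gesicles in 3 of 3. There *Meg3*, *Igf2* and *H19* were higher with gesicles in 2 of 3 and *Grb10*, *Peg3*, *Igf2r* and *Mest* in 1 of 3. The share of all genes with 1 direction in 3 of 3 was not counted. With gesicle and Ctrl libraries of 1 number paired in a replicate block, 0 of the 10 were called. *H19* and *Igf2* are counted among the 10 here and below. At 0 to 11 and 0 to 40 counts per library, their not being called decides nothing. edgeR and DESeq2 called 0 of the 10 in 20% O2 (0.0247% and 0.253% of all genes) and in 1% O2 (0.0% and 0.0%), and 0 had an unadjusted p under 0.05 (2.41% and 1.45%). In 1% against 20% O2, gesicle-treated TFs had a log2 fold change of 0.53 for *Meg3* (SE 0.33, adjusted p = 0.438 in edgeR), with libraries that did not overlap.

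Other imprinted genes were counted from a hand-written list of 68, of which 49 passed the filter. In the averaged cKO against Ctrl comparison 3 were called higher and 1 lower, against 3.78% of all genes, with a median of 0.02 against 0.024 over all genes. DESeq2 called 6, against 9.21%, and 7 had an unadjusted p under 0.05, against 11.2%. *Dcn*, which encodes the small collagen-binding proteoglycan decorin and is imprinted in mouse placenta, was at 162, 187 and 287 CPM in Ctrl 20% O2 and at 750, 974 and 757 CPM in cKO 20% O2. In 1% O2 it was at 111, 108 and 147 CPM in Ctrl and at 429, 939 and 828 CPM in cKO TFs, without overlap at either level. Its log2 fold change was 1.96 (SE 0.29, adjusted p = 0.0233 in edgeR) in 20% and 2.58 (SE 0.29, adjusted p = 0.0171 in edgeR) in 1% O2. These calls held in 9 of 14 and 8 of 14 alternatives, with adjusted p up to 0.148 and 0.118, and the averaged call, 2.27 (adjusted p = 0.00117 in edgeR), held in 26 of 26 alternatives. *Slc38a4*, an amino acid transporter (1.24, adjusted p = 0.0362 in edgeR), and *Tfpi2*, a protease inhibitor (0.70, adjusted p = 0.0392 in edgeR), were higher and *Sfmbt2*, a Polycomb group protein, lower (−1.23, adjusted p = 0.0279 in edgeR), and these calls held in 10, 8 and 11 of 26 alternatives. *Tfpi2* was also the 1 gene of the list called between 1% and 20% O2 in Ctrl (1.39, adjusted p = 0.0114 in edgeR) and in cKO TFs (1.01, adjusted p = 0.0474 in edgeR), calls held in 13 and 6 of 15 alternatives. That is 1 of 49 in each, near the 1.88% and 2.1% called among all genes.

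Among 20 genes that set or keep imprints, 18 were tested. In the averaged cKO against Ctrl comparison edgeR called 1 of them, against 3.78% of all genes. *Smchd1*, a chromatin protein of the inactive X chromosome and of imprinted clusters, was lower in cKO TFs in the averaged comparison (−0.77, adjusted p = 0.0493 in edgeR), a call held in 6 of 26 alternatives, and the median of the list was −0.21 against 0.024 over all genes. With *Xist* class, which was unevenly split between the genotypes, as a covariate, *Smchd1* had −0.68 (adjusted p = 0.0971 in edgeR). In 1% against 20% O2, *Dnmt3l*, a cofactor of DNA methyltransferases, rose (2.34, adjusted p = 0.0123 in edgeR) and *Zfp57*, a zinc finger protein that protects imprints, fell (−1.09, adjusted p = 0.0294 in edgeR) in Ctrl TFs. *Trim28*, the corepressor that ZFP57 recruits, fell in cKO TFs (−0.73, adjusted p = 0.0283 in edgeR). These calls held in 11, 8 and 9 of 15 alternatives. Of the 18, edgeR thus called 1 higher and 1 lower in Ctrl TFs (1.88% of all genes) and 1 lower in cKO TFs (2.1%). In the genotype where each was not called, *Dnmt3l* had 1.31 in cKO TFs (adjusted p = 0.12 in edgeR, 0.0485 in DESeq2), *Zfp57* −0.95 in cKO TFs (adjusted p = 0.0557 in edgeR, 0.00475 in DESeq2) and *Trim28* −0.35 in Ctrl TFs (adjusted p = 0.272 in edgeR), each without overlap between O2 levels and in the same direction. edgeR called the interaction of genotype and O2 for none of the 3, so no difference between genotypes is shown. *Dnmt3l* was low throughout, at 0.456 to 0.911 CPM in Ctrl 20% O2 and 1.85 to 5.05 CPM in Ctrl 1% O2, and *Zfp57* was at 6.57 to 9.09 and 3.06 to 4.08 CPM.

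Of 16 genes of the IGF2 and *H19* pathways, 14 were tested. *Igfbp3*, which encodes a carrier protein that holds IGFs in the extracellular space, was at 21, 28.7 and 18.9 CPM in Ctrl 20% O2 and at 93.4, 49.4 and 119 CPM in cKO 20% O2. It rose by a log2 fold change of 1.93 (SE 0.33, adjusted p = 0.0348 in edgeR) in 20% O2, a call held in 7 of 14 alternatives with adjusted p up to 0.228, and by 1.57 averaged over both O2 levels (SE 0.23, adjusted p = 0.00556 in edgeR), a call held in 25 of 26 alternatives. It was the only gene of this list called in either comparison, where 0.347% and 3.78% of all genes were called. *Hmga2*, a chromatin protein of growing fetal cells, fell in 1% O2 in cKO (−1.20, adjusted p = 0.0139 in edgeR) and in gesicle-treated TFs (−1.19, adjusted p = 0.0177 in edgeR). In Ctrl TFs it had −0.79 (adjusted p = 0.0773 in edgeR, 0.00888 in DESeq2) and was called in 5 of 15 alternatives. *Hmga2* was the 1 gene of the list that edgeR called between O2 levels in cKO (2.1% of all genes) and in gesicle-treated TFs (2.41%).

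The 5 genes whose log2 CPM followed that of *H19* most closely over the 18 libraries, of 16173 others, were *Dcn* (Pearson r 0.936), *Lpar4* (0.931), *Rab3il1* (0.891), *Gm36958* (0.887) and *Efhd1* (0.884). The 6 cKO libraries lie apart from the 12 others in *H19*, so these values describe mainly that split, and *H19* had at most 11 counts per library outside it. *Lpar4*, a lysophosphatidic acid receptor, was 22.1 ± 3.80 CPM in cKO 20% O2 and 12.8 ± 0.579 CPM in Ctrl 20% O2. Of the other members, *Mest* ranked 269th (r 0.677), *Plagl1* 797th (0.574), *Igf2* 3632nd (0.324), and *Grb10* was the most negative (−0.497).

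**Figure D4:**
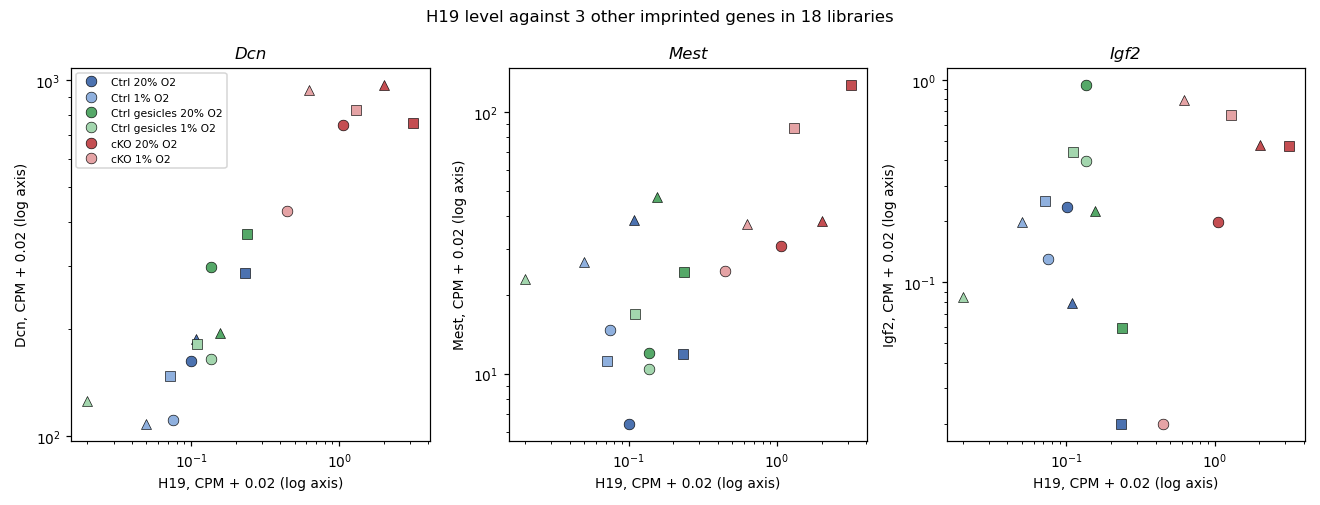
*H19* (horizontal axes) against *Dcn*, *Mest* and *Igf2* (vertical axes) in 18 libraries, in CPM plus 0.02 on log scales, coloured by group, with circles, triangles and squares for replicates 1, 2 and 3. The cKO libraries (red) stand to the right in each panel and above the others for *Dcn*, from 429 CPM, but not for *Igf2*, where cKO 1% O2 replicate 1 had 0 counts.

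Markers were summed per library beside these results. The 9 tendon fibroblast markers summed to 10900 to 13100 CPM in Ctrl 20% O2 and 4290 to 9610 CPM in cKO 20% O2, which did not overlap, and to 5720 to 13300 and 5190 to 8610 CPM in 1% O2. The sums mostly reflect the most abundant markers, with medians of 3870 CPM for *Col1a1* and 2710 CPM for *Col1a2*, against 14.9 CPM for *Scx*. In 20% O2, 5 of the 9 had a positive and 4 a negative log2 fold change. Their median was 0.07 against 0.034 over all genes. In the averaged comparison edgeR called 0 of the 9, DESeq2 called 2 and 3 had an unadjusted p under 0.05 (3.78%, 9.21% and 11.2% of all genes). The 5 mural and smooth muscle markers were at 190 to 320 CPM in Ctrl 20% O2 and 93.2 to 124 CPM in cKO 20% O2, and at 200 to 262 and 127 to 172 CPM in 1% O2. Of them 3 were called lower in cKO TFs in the averaged comparison, against 3.78% of all genes, and *Acta1*, from the list of 8 skeletal muscle genes, was lower too. *Pax7*, *Myf5* and *Myog* had no counts in these 12 libraries, and *Myod1* was above 0 only in 2 cKO libraries, at up to 0.0255 CPM. The 4 Schwann and neural crest markers were at 5.33 to 10.6 CPM in Ctrl and 9.64 to 16.3 CPM in cKO 20% O2, with 0 of 3 tested genes called by edgeR, 1 by DESeq2 and 2 at an unadjusted p under 0.05 (3.78%, 9.21% and 11.2% of all genes). The part of these in the values of the imprinted genes was not tested, and in bulk samples a change in the share of cells and a change in RNA per cell cannot be told apart.

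Promoter windows of 300 bases (250 before to 50 after the start) were given by RefSeq for 8 of the 10 members. They were searched for the core of the HIF-binding hypoxia response element, written ACGTG or GCGTG, on either strand. At least 1 core was present in 6 of the members' 15 windows, against 43.8% of 32851 windows of all genes. *Igf2r* and *Grb10*, the members with the lowest averaged log2 fold changes in cKO TFs, and *Mest*, the highest among well-counted members, are shown from the windows on GRCm38.p6 for chr17:12769657-12769956 (minus strand), chr11:12037371-12037670 (minus strand) and chr6:30737800-30738099 (plus strand). Capitals mark each run of cores, and the run CACGTG reads as a core on both strands and is also the E-box of other factors.
Igf2r: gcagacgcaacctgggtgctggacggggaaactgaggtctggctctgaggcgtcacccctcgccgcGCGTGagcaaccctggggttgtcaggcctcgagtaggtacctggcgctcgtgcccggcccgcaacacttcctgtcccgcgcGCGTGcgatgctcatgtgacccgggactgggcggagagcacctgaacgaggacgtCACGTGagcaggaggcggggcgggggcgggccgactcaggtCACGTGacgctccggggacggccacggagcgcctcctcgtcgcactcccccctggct
Grb10: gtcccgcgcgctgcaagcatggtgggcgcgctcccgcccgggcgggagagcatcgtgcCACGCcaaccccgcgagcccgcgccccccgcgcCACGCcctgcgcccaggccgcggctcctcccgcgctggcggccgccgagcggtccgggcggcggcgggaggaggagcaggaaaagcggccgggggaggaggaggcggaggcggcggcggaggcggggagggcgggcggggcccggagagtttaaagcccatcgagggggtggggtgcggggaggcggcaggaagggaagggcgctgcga
Mest: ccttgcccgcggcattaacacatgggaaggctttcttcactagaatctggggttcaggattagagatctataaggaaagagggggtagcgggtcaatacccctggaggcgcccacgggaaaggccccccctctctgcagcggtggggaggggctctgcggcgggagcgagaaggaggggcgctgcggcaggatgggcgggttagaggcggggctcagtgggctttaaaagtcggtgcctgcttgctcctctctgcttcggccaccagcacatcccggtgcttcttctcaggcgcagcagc
The *Igf2r* window holds 4 runs of cores and 34 CG dinucleotides, that of *Grb10* 2 runs and 45, and that of *Mest* 0 runs and 17, where the median over all windows was 7 CG dinucleotides. These windows were picked from the extremes, and among the others that of *Plagl1*, with a positive averaged log2 fold change, holds 3 runs, that of *Dlk1* 2, that of *Peg3* 1, 1 of 4 of *Igf2* 1, and the second window of *Grb10* 0. Runs were thus present in members with positive and with negative log2 fold changes.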

How the data were processed

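Poly-A RNA of 18 mouse TF libraries was sequenced as paired ends. The authors trimmed reads with cutadapt, mapped them to GRCm38 with STAR and deposited estimated counts per gene from RSEM 1.3.3, as whole numbers and not normalized (55491 rows, 4 of them transgenes). Library totals of 6857558 to 51806453 set the smallest values that can be seen.

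From these counts, edgeR 4.0.16 (TMM, filterByExpr, quasi-likelihood test, 1 coefficient per group, R 4.3.3) gave log2 fold changes in 1 fit of 12 and 1 of 18 libraries, for 9 comparisons. The SE was obtained as the size of the log2 fold change over the root of the F statistic, and p-values were adjusted over all genes tested. A gene was called at an adjusted p under 0.05 and a fold of 1.5. The floor was 3 counts. Positions, exon lengths and *H19* exons came from GENCODE M21 and sequences from RefSeq (both GRCm38). On simulated data the test recovered more of the 4-fold than of the 2-fold changes.

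The genes and lists were chosen with earlier results of these data known. Named are the 10 members, every listed gene called in a comparison, and the 5 genes most correlated with *H19*; marker genes, *Airn*, *Copg2*, *Gm49394* and *Lpar4* among them were picked for description after values were seen. Same-numbered Ctrl libraries in 20% and 1% O2 deviated together (correlations 0.282, 0.30 and 0.472), as did Ctrl and gesicle libraries (0.193 to 0.462), and cKO libraries less so (0.0917, 0.0932 and 0.386). Between Ctrl and cKO libraries of the same number the correlations were −0.158, −0.0434 and −0.113 in 20% O2. In 1% O2 they were 0.0946, 0.226 and −0.00108. Alternatives were DESeq2 1.42.0, RLE size factors, no filter, the replicate block, other sets of libraries in the fit, *Xist* class as a covariate, thinned counts, no fold minimum, summed libraries, and each library left out.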

Additional observations from a re-analysis of the deposited data

Results flagged for a closer look

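*Meg3* was higher in 1% than in 20% O2 in 3 of 3 gesicle-treated Ctrl numbers (log2 changes 0.51, 0.14 and 0.84, with 0.1 CPM added) and lower in 3 of 3 cKO numbers (−0.31, −0.18 and −0.14), so that the mean changes differed by 0.71. The difference was not tested, and untreated Ctrl TFs had changes in both directions (−0.67, 0.23 and −0.53). Transgene rows outside the comparisons held counts that were absent from Ctrl libraries: eGFP had 14 counts over the 6 cKO libraries, and tdTomato 8 counts over the 6 gesicle libraries, with 0 in the 6 Ctrl libraries for each.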

How the results depend on the processing

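Depth limited *H19* and *Igf2* most, with 11 counts or fewer per library for *H19* outside cKO TFs, and the smallest library held 6857558 counts. In the averaged cKO against Ctrl comparison, 1 of 9 members was called, and the count moved to 4 with DESeq2, to 4 without a filter on low counts, to 0 with the replicate block, to 0 with *Xist* class as a covariate and to 0 with the libraries of 1 mouse summed. It ranged from 0 to 3 with libraries left out, including both libraries of 1 mouse, a choice made after the data were seen, as was the block that reads gesicle and Ctrl libraries of 1 number as 1 mouse. Between 1% and 20% O2 in Ctrl TFs the count of 0 rose to 1 with DESeq2 and to 1 with the replicate block by mouse. The replicate block changed no other member's call.

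*Dlk1* turned from −0.10 to 0.04 with the replicate block in 20% O2 and from 0.07 to −0.04 with *Xist* class as a covariate in the average. With libraries left out, *Dlk1* ranged from −0.44 to 0.30 in 20% O2, −0.17 to 0.67 in 1% O2 and −0.31 to 0.32 in the average, and *Meg3* from −0.18 to 0.31, −0.12 to 0.45 and −0.14 to 0.36. *H19* stayed between 3.50 and 4.35 in the average. Over all 1433 values of members under alternatives, 100 changed sign, and the cause was not tested.

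Counts over all genes depended more on the tool and the libraries. With DESeq2, 694, 888 and 728 genes were called between O2 levels in Ctrl, cKO and gesicle-treated TFs (298, 333 and 390 with edgeR), 432, 288 and 1251 between cKO and Ctrl TFs in 20% O2, 1% O2 and averaged (55, 6 and 599), 2 for the interaction (0) and 46 with gesicles in 20% O2 (4). Without the filter the counts were 281, 111 and 1189 for cKO against Ctrl TFs, 511 for O2 in cKO TFs and 23 for gesicles. The fit of only the groups compared called 1 and 0 genes between cKO and Ctrl TFs at 20% and 1% O2, 84 and 120 between O2 levels in cKO and gesicle-treated TFs and 1 with gesicles, and that of all 18 libraries 87 and 14. The averaged count was 358 with the replicate block, 336 with *Xist* class and 25 with summed libraries. In 1% O2, cKO against Ctrl TFs had 2, 15 and 16 genes with the block, *Xist* class and thinned counts. Gesicles in 20% O2 had 0 with *Xist* class, 2 with thinned counts and 2 with the block by mouse. With a library left out, the counts were 116 to 261, 98 to 1373 and 148 to 346 for O2, 1 to 154, 0 to 6 and 137 to 1531 for cKO against Ctrl TFs, 0 to 1 for the interaction and 0 to 2 for gesicles in 20% O2.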
